A study of Homo sapiens with 6 samples.

Results

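The TGF-β genes described here include the ligands TGFB1 and TGFB2, the LTBP family gene LTBP2, and the receptors TGFBR1 and TGFBR2. The others are the signal carriers SMAD2 and SMAD3, the inhibitors SMAD7 and SKIL, and the target gene TGFBI. All 10 were chosen by gene symbol and were found among the 21462 genes of the deposited count table. RNA was sequenced from 2 kinds of A431 cells, a human line derived from an epidermoid carcinoma that is used as a model of keratinocytes. A431CT cells are the control line, labelled as wild type, and Dsg2KO cells are A431 cells in which DSG2, the gene of the desmosomal cadherin Desmoglein-2, was edited with CRISPR/Cas9. Both were grown in the same serum-containing medium without further treatment, and each gave 3 libraries that the study calls biological replicates. The sources used here do not say whether either line is 1 clone, so effects of DSG2 loss and differences acquired while the lines were made cannot be told apart. In bulk RNA, a change in the level per cell and a change in the share of cells that express a gene cannot be told apart either.

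TGF-β is secreted in a latent form, bound to its own propeptide and often tethered to the matrix through an LTBP protein. Once released, it is bound by the type II receptor TGFBR2, which brings in and activates the type I receptor TGFBR1. TGFBR1 phosphorylates SMAD2 and SMAD3, which enter the nucleus with SMAD4 and bind DNA at a short core, GTCT or its complement AGAC. SMAD7 and SKIL are classical early targets of this signal and act back on it, SMAD7 at the receptor and SKIL (SnoN) on the SMAD complex. In keratinocytes TGF-β is known for halting proliferation and for inducing matrix and migration genes. The study tested TGF-β signaling as a route from Dsg2 to matrix gene expression, and the libraries allow the question of how the RNA of the pathway's own components differed between the lines.

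The table held 12845719 to 13650746 counts per A431CT library and 14786041 to 16255692 per Dsg2KO library. Levels are given as CPM, the counts of a gene relative to its library's total after scaling with edgeR's TMM factors, on which 3 counts correspond to between 0.183 and 0.236 CPM. DSG2 itself was between 319 and 330 CPM in A431CT and between 49.7 and 55.1 CPM in Dsg2KO libraries. Of 10 keratinocyte and epithelial markers, 9 were tested, and the whole list summed to 11155 to 11764 CPM in A431CT and 12312 to 12689 CPM in Dsg2KO libraries. EGFR made up most of this sum, at means of 8446 and 9128 CPM, while KRT6A fell by 1.03 on the log2 scale. KRT14 was at or under 3 counts in every library. Fibroblast markers summed to at most 0.469 CPM in any library, with COL1A2 and PDGFRA at 0. Endothelial markers summed to 8.44 to 11.3 CPM in A431CT and 15.1 to 15.7 CPM in Dsg2KO libraries, and of these CDH5 and PECAM1 rose, by 0.76 and 0.54 on the log2 scale, while KDR was at or under 3 counts throughout. The leukocyte sum of 239 to 243 CPM in A431CT and 153 to 165 CPM in Dsg2KO libraries was almost wholly CD68, with CD3E at 0. The part of these markers in the results below was not tested.

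The quasi-likelihood test of edgeR was run on 12857 genes, and a gene passed when its adjusted p-value was under 0.05 and its log2 fold change was also 0.5 or more in size. Both thresholds are those of the study. By this rule LTBP2, SMAD7, SKIL and TGFBR1 rose in Dsg2KO cells and none of the 10 genes fell. These 4 of 10 stand against 6.03% of all tested genes in either direction, 2.99% as higher and 3.03% as lower. By the adjusted p-value alone 7 of the 10 were higher, and none lower, against 14.3% higher, and 29.6% in either direction, of all tested genes. TGFB1, TGFB2 and TGFBR2 were the additional ones, while SMAD2, SMAD3 and TGFBI did not pass. The log2 fold change was above 0 for 9 of the 10 genes, against 49.1% of all tested genes. Its median over the 10 genes was 0.40, and it was -0.0048 over all genes tested. The 6 libraries separated without overlap for 6 of the 10 genes, each higher in Dsg2KO cells, against 21.2% of all tested genes that were higher and 21.4% that were lower without overlap. All 10 genes passed the low-count filter.

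**Figure D1:**
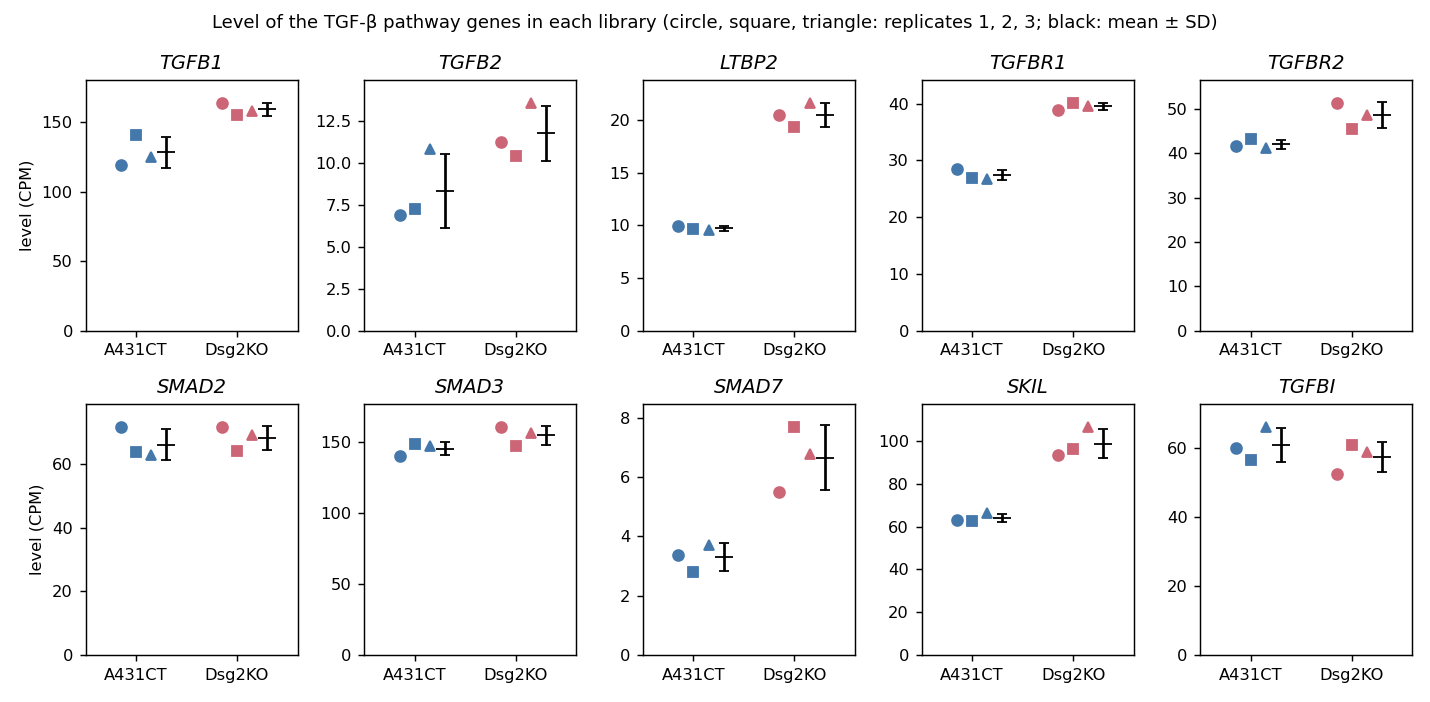
Level in CPM (vertical axis, from 0) of each of the 10 genes in the 3 A431CT and 3 Dsg2KO libraries, with symbols for the replicate number and black marks for the mean ± SD. LTBP2, TGFBR1, SMAD7 and SKIL show clear gaps between the conditions, while the points of SMAD2, SMAD3 and TGFBI overlap.

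SMAD7 and SKIL, listed among the 10 genes as feedback inhibitors, are shown first with the DNA upstream of their start. Whether their rise was feedback was not tested. The SMAD palindrome GTCTAGAC, 2 cores back to back, was searched in the 2000 bases before the MANE Select start of every gene that could be placed, in the GRCh38 genome. The palindrome reads the same on both strands. It was found for 218 of 18729 genes (1.16%). SMAD7 was the 1 of the 10 genes with a match, which begins 1260 bases before its start. The match is shown with its surroundings, chr18:48952188-48952255, minus strand, and capitals mark the palindrome.

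SMAD7 palindrome: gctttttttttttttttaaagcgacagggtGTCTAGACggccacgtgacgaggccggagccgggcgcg

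The 250 bases before the RefSeq start of SMAD7 (GRCh38.p14, chr18:48950966-48951215, minus strand) hold no palindrome but 4 matches to the core GTCT or AGAC, marked in capitals. Of the promoters of 27305 genes in the RefSeq table, 77.6% held at least 1 core in a window of this length and 7.73% held 4 or more, with a median of 1. The longer motifs CAGACA and TGANTCA (the AP-1 site), searched on both strands, had no match in this window, and 13.6% and 6.60% of all promoters held them.

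SMAD7 promoter: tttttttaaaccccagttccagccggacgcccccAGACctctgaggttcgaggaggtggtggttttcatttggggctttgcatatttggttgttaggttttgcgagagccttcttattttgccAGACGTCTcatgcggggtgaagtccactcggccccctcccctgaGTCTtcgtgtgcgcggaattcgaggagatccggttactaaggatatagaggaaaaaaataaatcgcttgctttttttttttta

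For the other 3 genes that rose, the 30 bases with the most cores are shown from the same kind of window. These windows overlap annotated exons, and the stretches were chosen by their cores, without regard to exons. The SKIL window held 3 cores and those of LTBP2 and TGFBR1 held 1 each, the median of all promoters. The stretches lie at chr3:170357604-170357633 (plus strand), chr14:74612245-74612274 (minus strand) and chr9:99104887-99104916 (plus strand). Capitals mark the core.

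SKIL: cggcGTCTgcgggaagctgtgtGTCTccgc
LTBP2: gtgtggataaaagAGACgaaaaagccgggg
TGFBR1: ggccggggctgggGTCTggcggcccagccc

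A match to these letters describes the sequence only, as binding was not measured. Of the windows of the 6 remaining genes, the one of TGFB2 held 3 cores and the motif CAGACA, starting 53 bases before its start. Those of TGFBR2, SMAD2 and TGFBI held 1 core each, and those of TGFB1 and SMAD3 held none. The counts of these genes are given next, by role.

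Of the ligands, TGFB1 (ENSG00000105329, chr19:41301587-41353922) was the more abundant and TGFB2 (ENSG00000092969, chr1:218345336-218444619) the more variable. TGFB1 was at 119, 141 and 125 CPM in A431CT and at 164, 155 and 158 CPM in Dsg2KO libraries, so that every Dsg2KO library lay above every A431CT library. Its mean went from 128 ± 11.3 to 159 ± 4.64 CPM (SD, n = 3 each), a log2 fold change of 0.31 with a standard error of 0.05 (edgeR adjusted p = 5.87e-04). This passed the adjusted p-value but not the fold change minimum, and the upper end of its 95% interval, 0.43, lay under that minimum. TGFB1 overlaps HNRNPUL1 and CCDC97 on the opposite strand, and the sources used here do not give the strand setting of the counting. HNRNPUL1 was at -0.15 and CCDC97 at -0.59 on the log2 scale. Whether reads of overlapping genes entered the counts of TGFB1 was not tested.

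TGFB2 was counted 88, 98 and 140 times in A431CT and 168, 170 and 220 times in Dsg2KO libraries. On the CPM scale these are 6.92, 7.22 and 10.8 against 11.3, 10.4 and 13.6. A431CT replicate 3 stood above the other control libraries and overlapped the lowest Dsg2KO library. The means were 8.33 ± 2.19 and 11.7 ± 1.65 CPM (SD, n = 3 each), a log2 fold change of 0.50 with a 95% interval from 0.14 to 0.86 (adjusted p = 0.0381, edgeR). Unrounded, this change was just under the fold change minimum. Without A431CT replicate 3 it was 0.73 and passed both thresholds (adjusted p = 0.00386, edgeR), and it also passed without Dsg2KO replicate 2. Without A431CT replicate 1 or 2, or Dsg2KO replicate 1 or 3, the adjusted p-value was above 0.05, between 0.0723 and 0.165 (edgeR).

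LTBP2 (ENSG00000119681, chr14:74498183-74612378) is a matrix protein of the LTBP family. The libraries do not show whether it acts on TGF-β latency. LTBP2 levels were 9.98, 9.65 and 9.53 CPM in A431CT and 20.5, 19.4 and 21.7 CPM in Dsg2KO libraries. The groups were far apart and each was tight, with means of 9.72 ± 0.234 and 20.5 ± 1.15 CPM (SD, n = 3 each). LTBP2 rose 2.11-fold, a log2 fold change of 1.08 with a standard error of 0.10 (edgeR adjusted p = 1.66e-06). With 381 and 974 counts in all, counting error alone gives a standard error of 0.09. Its log2 fold change stayed between 1.04 and 1.12 with any 1 library left out.

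The receptors differed in how far they moved. TGFBR1 (ENSG00000106799, chr9:99104038-99154192), the type I receptor, was at 28.5, 27.0 and 26.8 CPM in A431CT and at 39.0, 40.2 and 39.5 CPM in Dsg2KO libraries. It rose from 27.4 ± 0.951 to 39.6 ± 0.634 CPM (SD, n = 3 each), a log2 fold change of 0.53 with a standard error of 0.06 (edgeR adjusted p = 2.47e-05). Although the conditions were well separated, the change is near the fold change minimum, and its 95% interval from 0.39 to 0.67 includes it. It passed in every leave-one-out fit, between 0.51 and 0.56.

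TGFBR2 (ENSG00000163513, chr3:30606601-30694142), the type II receptor, was at 41.7, 43.2 and 41.1 CPM in A431CT and at 51.4, 45.5 and 48.7 CPM in Dsg2KO libraries. The groups did not overlap, with the lowest Dsg2KO library not far above the highest A431CT library. The means were 42.0 ± 1.05 and 48.6 ± 2.95 CPM (SD, n = 3 each), a log2 fold change of 0.21 with a 95% interval from 0.07 to 0.34 (adjusted p = 0.0212, edgeR). It passed the adjusted p-value but not the fold change minimum, and its adjusted p-value ranged from 0.0109 to 0.102 over the alternatives tried.

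The signal carriers did not pass the test. SMAD2 (ENSG00000175387, chr18:47808957-47931146) was at 71.8, 63.8 and 62.8 CPM in A431CT and at 71.6, 64.2 and 69.3 CPM in Dsg2KO libraries. Its libraries overlapped fully, and its log2 fold change was 0.05 with a 95% interval from -0.08 to 0.18 (adjusted p = 0.61, edgeR). SMAD3 (ENSG00000166949, chr15:67063763-67195173) was at 140, 148 and 147 CPM in A431CT and at 160, 147 and 156 CPM in Dsg2KO libraries. Its log2 fold change was 0.09 with a 95% interval from -0.01 to 0.18 (adjusted p = 0.15, edgeR). For both genes the interval ends well under the fold change minimum of 0.5.

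The feedback inhibitors both rose. SMAD7 (ENSG00000101665, chr18:48919853-48950965), which carries receptors to degradation and blocks SMAD2 and SMAD3, was the least abundant of the 10 genes. It was counted 43, 38 and 48 times in A431CT and 82, 126 and 110 times in Dsg2KO libraries, or 3.38, 2.80 and 3.72 against 5.50, 7.70 and 6.80 CPM. The lowest Dsg2KO library was above the highest A431CT library, while the Dsg2KO libraries varied more among themselves. SMAD7 rose 2.02-fold, from 3.30 ± 0.465 to 6.67 ± 1.11 CPM (SD, n = 3 each), a log2 fold change of 1.02 with a standard error of 0.20 (edgeR adjusted p = 0.00141). Counting error alone gives a standard error of 0.15 for it. Its log2 fold change lay between 0.90 and 1.14 with any 1 library left out, past both thresholds each time.

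SKIL (ENSG00000136603, chr3:170357342-170396835), a co-repressor that binds the SMAD complex, was at 63.1, 62.8 and 66.2 CPM in A431CT and at 93.5, 96.3 and 107 CPM in Dsg2KO libraries. No Dsg2KO library came near the controls. The means were 64.1 ± 1.89 and 98.8 ± 6.93 CPM (SD, n = 3 each), so that SKIL rose 1.54-fold, a log2 fold change of 0.63 with a standard error of 0.06 (edgeR adjusted p = 1.37e-06). Its log2 fold change lay between 0.57 and 0.66 with any 1 library left out.

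TGFBI (ENSG00000120708, chr5:136028988-136063818), a secreted matrix protein named for its induction by TGF-β, was at 60.0, 56.7 and 66.2 CPM in A431CT and at 52.6, 60.9 and 58.8 CPM in Dsg2KO libraries. The libraries of the conditions were intermingled. Its log2 fold change was -0.08 with a 95% interval from -0.23 to 0.06 (adjusted p = 0.41, edgeR), the 1 negative value among the 10 genes.

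**Figure D2:**
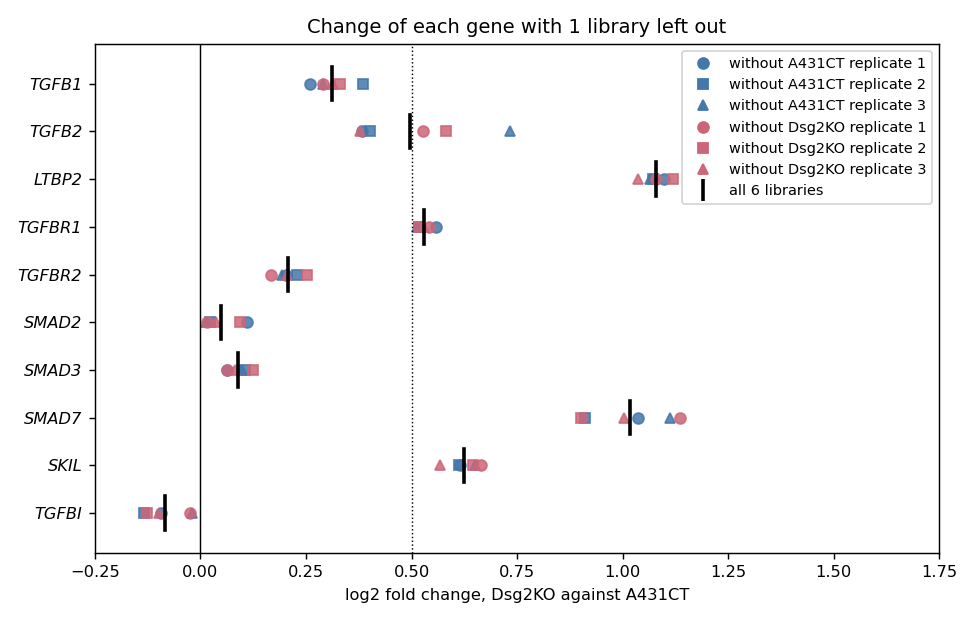
Log2 fold change of each of the 10 genes (horizontal axis) with 1 library left out at a time, with colour for the condition and symbol for the replicate that was left out, and black bars for all 6 libraries. The dotted line marks the fold change minimum of 0.5, which TGFB2 crosses and LTBP2, SMAD7, SKIL and TGFBR1 do not.

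Neighbouring genes were looked at to see whether a change was shared along the chromosome. The tested genes within 5 Mb on either side had a median log2 fold change between -0.02 for TGFB1 and 0.10 for TGFB2, over 22 to 173 genes per position. SMAD7 and SMAD2 lie on chromosome 18, as DSG2 does, and the medians around them were 0.03 and 0.04. With the median of its neighbours taken off, LTBP2 was at 1.01, SMAD7 at 0.98, SKIL at 0.54 and TGFBR1 at 0.51, all still past the fold change minimum. TGFB2 was at 0.40.

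**Figure D3:**
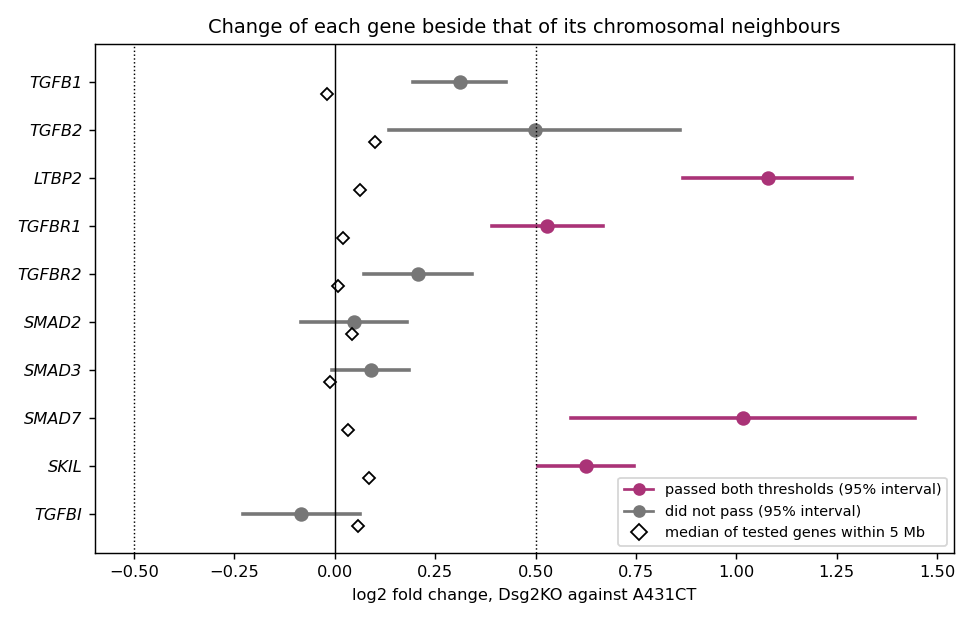
Log2 fold change of each gene in Dsg2KO against A431CT cells (horizontal axis) with its 95% interval from the edgeR fit, and open diamonds for the median of the tested genes within 5 Mb. Dotted lines mark the fold change minimum of 0.5 in either direction. The diamonds lie between -0.02 and 0.10, and the intervals of LTBP2, SMAD7 and SKIL lie wholly above 0.5.

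To compare levels between genes, CPM was divided by the length in kb of the MANE Select transcript. TGFB1 had the highest level, at 46.1 CPM per kb in A431CT and 57.2 CPM per kb in Dsg2KO cells. In A431CT cells TGFBI and SMAD3 followed, both at 22.5 CPM per kb and with overlapping libraries. TGFBR2 at 9.28 and SKIL at 8.95 CPM per kb overlapped as well, with TGFBR1 below them at 4.23. SMAD2, TGFB2, LTBP2 and SMAD7 were at 1.91, 1.42, 1.15 and 0.988 CPM per kb, and each overlapped or nearly touched the next in this order. The value of SMAD2 depends on its annotated transcript of 34626 bases, far longer than those of the other genes. In Dsg2KO cells SKIL, at 13.8 CPM per kb, lay above TGFBR2 at 10.7, with no overlap of the libraries. LTBP2 moved to 2.43 CPM per kb there, above SMAD2 at 1.97.

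Ratios of genes within a library (counts plus 0.5) do not depend on scaling, and 5 of them were compared between the conditions with an exact two-sided permutation test over the 6 libraries. The smallest p-value that 3 against 3 libraries allow is 0.1, so no ratio could reach 0.05. SMAD7 relative to SMAD3 was higher in all 3 Dsg2KO libraries than in any A431CT library, by 0.91 on the log2 scale, from -5.45 ± 0.225 to -4.54 ± 0.305 (exact permutation p = 0.1, adjusted p = 0.17 over the 5 ratios). SKIL relative to SMAD3 was higher by 0.53, from -1.18 ± 0.0517 to -0.65 ± 0.119, and TGFBR1 relative to TGFBR2 by 0.32, from -0.61 ± 0.0651 to -0.29 ± 0.111. Both had no overlap and the same exact p-values. TGFB2 relative to TGFB1 differed by 0.20 with overlapping libraries (exact permutation p = 0.5, adjusted p = 0.63). This difference was 0.043 without A431CT replicate 2 and 0.42 without A431CT replicate 3. SMAD3 relative to SMAD2 differed by 0.04 (exact permutation p = 1), and without A431CT replicate 1 the difference was -0.05.

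**Figure D4:**
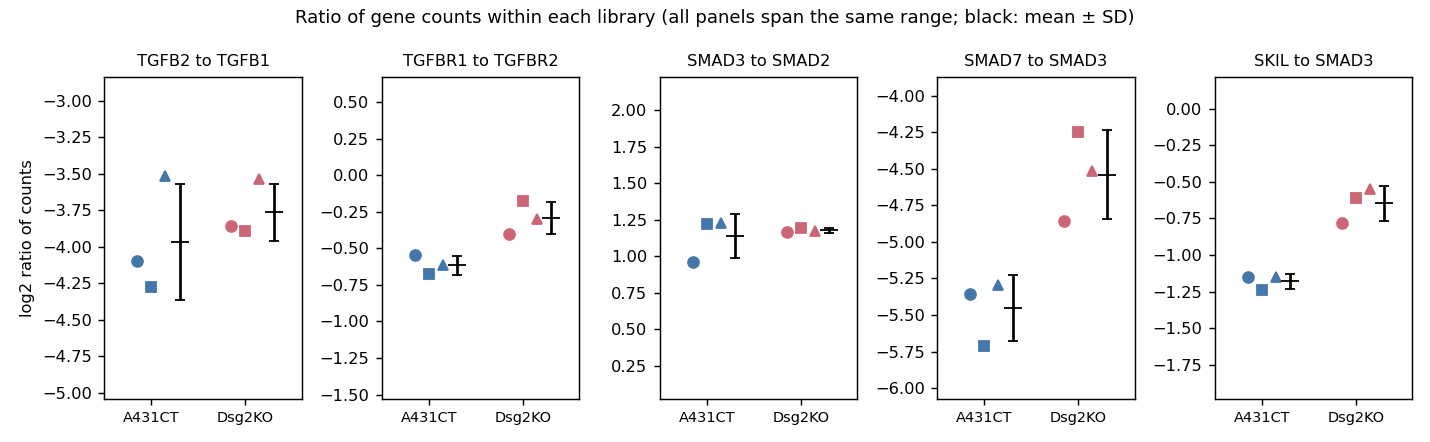
Log2 ratio of the counts of 2 genes within each library (vertical axis, the same span in every panel), with symbols for the replicate number and black marks for the mean ± SD. TGFBR1 to TGFBR2, SMAD7 to SMAD3 and SKIL to SMAD3 were higher in every Dsg2KO library than in any A431CT library, and the remaining ratios overlap.

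The 10 genes were then placed among 62 genes of the pathway listed by role, of which 48 had enough counts to be tested. Of these 48, 6 rose and none fell, beside 2.99% and 3.03% of all tested genes, and these 6 include LTBP2, SMAD7, SKIL and TGFBR1. By the adjusted p-value alone 16 were higher and 6 lower, beside 14.3% and 15.3% of all tested genes. Beside the same shares, 2 of the 38 tested genes outside the 10 rose past both thresholds and none fell. By the adjusted p-value alone 9 of these 38 were higher and 6 lower, and their median log2 fold change was 0.16. Another 14 listed genes were under the low-count filter, among them TGFB3, INHBA and the inhibitor genes PMEPA1 and BAMBI. CCN2, CDKN2B and LRRC32 are listed at 0 in every library, and with an unknown annotation this does not show that they were not expressed. Genes named here other than GDF11 and the most abundant gene of each role were picked after their values were seen.

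The ligand GDF11, which signals through activin type receptors, was at 21.6, 17.5 and 18.5 CPM in A431CT and at 31.5, 30.9 and 31.4 CPM in Dsg2KO libraries. It rose by 0.71 on the log2 scale, with a standard error of 0.08 (edgeR adjusted p = 1.87e-05). Its libraries did not overlap. GDF11 overlaps SARNP on the opposite strand, which was at -0.08 on the log2 scale.

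Among the 8 tested genes listed under latency and activation, LTBP2 was the 1 that passed both thresholds, beside 6.03% of all tested genes. By the adjusted p-value alone 3 were higher and 3 lower, beside 14.3% and 15.3% of all tested genes. The lower ones included THBS1, thrombospondin 1, an activator of latent TGF-β and the most abundant gene of this role. It was at 795, 688 and 944 CPM in A431CT and at 571, 529 and 657 CPM in Dsg2KO libraries, a log2 fold change of -0.47 (adjusted p = 0.00111, edgeR), under the fold change minimum. Without A431CT replicate 2 or Dsg2KO replicate 3 it passed as a lower gene, at -0.57 and -0.56. The integrin subunits ITGAV and ITGB8, which take part in activation, were lower beside it, at -0.17 and -0.32 on the log2 scale. The higher ones beside LTBP2 were LTBP3 at 0.42 and the protease gene FURIN at 0.18. LTBP4 was at 0.05 and did not pass (adjusted p = 0.68, edgeR), and LTBP1 was under the low-count filter. The integrin subunit ITGB6 was at 0.24 and did not pass (adjusted p = 0.055, edgeR).

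Of the 8 receptors, TGFBR1 was the 1 past both thresholds, beside 6.03% of all tested genes. The co-receptor TGFBR3, with the most CPM in A431CT cells, had a log2 fold change of 0.02 (95% interval -0.14 to 0.18). SMAD4, the common partner of SMAD2 and SMAD3, was at -0.0032 (95% interval -0.12 to 0.11), with a sign that changed with the scaling. Of the 8 tested feedback inhibitors, SMAD7 and SKIL passed, while SKI, the closest relative of SKIL, went from 157 ± 9.55 to 135 ± 3.74 CPM (SD, n = 3 each). The log2 fold change of SKI was -0.22 (adjusted p = 0.00311, edgeR). By the adjusted p-value alone 2 of the feedback inhibitors were higher and 2, SKI and TGIF2, lower, beside 14.3% and 15.3% of all tested genes. The tested genes within 5 Mb of SKI had a median of -0.37, so that SKI lay 0.15 above its neighbours. Those around TGIF2, itself at -0.20, had a median of -0.17. The part of such shared shifts in these changes was not tested. The extracellular inhibitor FST, follistatin, was at 0.46 with overlapping libraries (adjusted p = 0.0107, edgeR). It was between 0.31 and 0.65 with 1 library left out, and its adjusted p-value was 0.102 with DESeq2 and 0.0568 without Dsg2KO replicate 3 (edgeR).

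Of the 16 tested target genes, 1 rose past both thresholds and none fell, beside 6.03% of all tested genes in either direction. It is among the genes whose results are not reported here. By the adjusted p-value alone 5 targets were higher and 1, HMGA2, lower, beside 14.3% and 15.3% of all tested genes. HMGA2 was at -0.25, and the tested genes within 5 Mb of it had a median of -0.17. The median log2 fold change of the 16 targets was 0.20, with a range from -0.47 to 0.86. TPM1, tropomyosin 1 and the most abundant target here, was at 149, 144 and 147 CPM in A431CT and at 191, 192 and 213 CPM in Dsg2KO libraries. Its log2 fold change of 0.44 (adjusted p = 6.61e-06, edgeR) was under the fold change minimum. The matrix genes FN1 (fibronectin) and COL1A1 (type I collagen), which the study also followed by qPCR, were scarce in these libraries. FN1 had 10 to 40 counts and COL1A1 23 to 50. FN1 had the top value of the range, with a standard error of 0.34 (edgeR adjusted p = 0.0702), and its adjusted p-value was between 0.0205 and 0.23 over the alternatives. Without A431CT replicate 1 FN1 was at 1.29 and passed both thresholds, and without A431CT replicate 3 it was at 0.60 and did not. COL1A1 was at 0.05 with a 95% interval from -0.61 to 0.72.

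**Figure D5:**
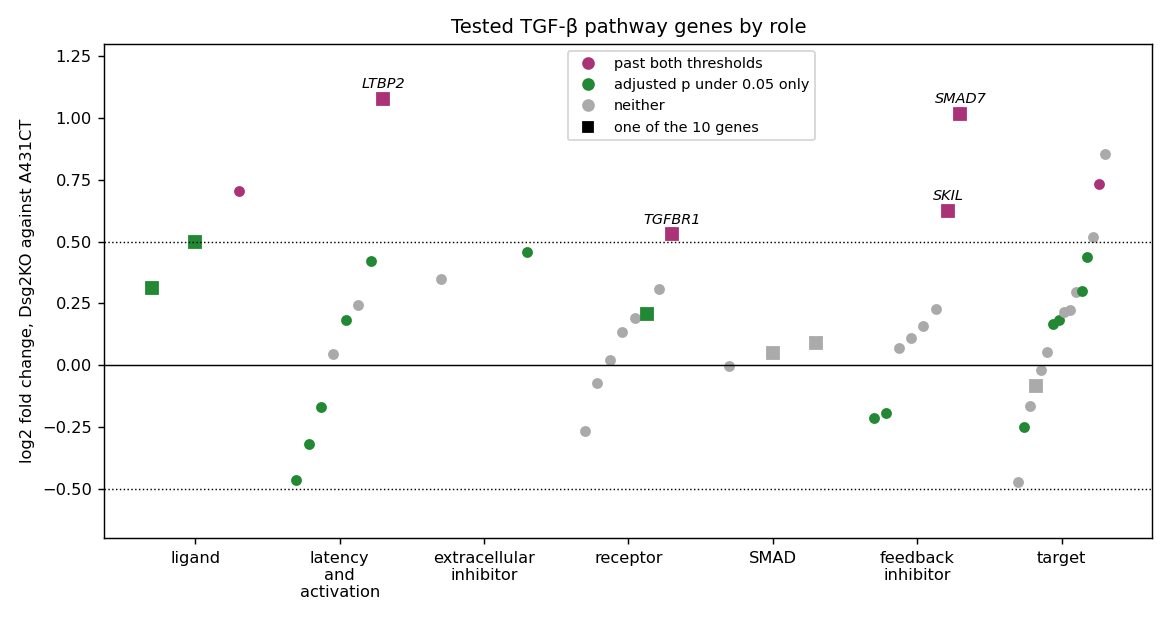
Log2 fold change in Dsg2KO against A431CT cells (vertical axis) of the 48 tested pathway genes, grouped by role and ordered by value within a role, with squares for the 10 genes and colours for the thresholds passed. The 4 named genes are those of the 10 past both thresholds, and the 3 SMAD genes lie near 0.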

How the data were processed

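RNA from 3 A431CT and 3 Dsg2KO cultures was sequenced as paired-end reads. The authors used CLC Genomics Workbench to trim the reads, align them to GRCh38/hg38 and quantify genes, and the deposited values are raw counts per gene symbol. The gene annotation and strand setting are not given in the sources used here. All 6 columns were mapped to a sample by the library name in the labels, and 0 columns were left without a sample.

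Counts were analysed in R 4.3.3 with edgeR 4.0.16 (filterByExpr with a minimum count of 10 and total of 15, TMM factors, quasi-likelihood test, Benjamini-Hochberg adjustment over all genes tested, no covariates). CPM came from edgeR's cpm function. The fit was tested on simulated data. Standard errors and 95% intervals follow from the quasi-likelihood F statistic. Intervals and floors cover counting error where so stated, and reads are not independent molecules. As the labels do not give the cultures' origin, p-values measure the spread between these libraries. No library repeated another, as chi-square per degree of freedom was 2.66 to 4.20 between replicates. Replicate numbers came from the sample titles, and residuals of same-numbered libraries correlated by -0.0027, 0.014 and 0.054 over all tested genes. These values cannot show whether single genes shared a replicate pattern, so a replicate block was tried as an alternative. DESeq2 1.42.0 was an alternative.

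The 10 genes and the list of 62 were chosen with earlier results of these data known. Genes planned to be named beside the 10 were DSG2, listed genes past both thresholds, and the listed gene with the most CPM in each role. Further listed genes were named after their values were seen. The results of some listed genes and markers are not reported here. Positions, transcript lengths and overlaps came from GENCODE 44 (GRCh38), and promoter sequences from RefSeq (GRCh38.p14), taken at the start nearest the MANE Select start; all 10 genes matched. Figures used matplotlib 3.10.9.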

Additional observations from a re-analysis of the deposited data

How the results depend on the processing

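LTBP2, SMAD7, SKIL and TGFBR1 passed both thresholds under all 14 alternatives of filter, scaling, test, block, left-out library and neighbour median, and SMAD2, SMAD3, TGFBR2, TGFB1 and TGFBI under none of these. Without a fold change minimum 7 of the 10 genes passed, and 22 of the listed pathway genes. A minimum of 1 (log2) left 2 in both counts, LTBP2 and SMAD7. TGFB2 crossed the minimum with total counts only (0.52), a filter of at least 1 count in any library (0.51) or at least 10 counts in every library (0.50), and a replicate block (0.51). The replicate block gave 5 of the 10 genes and 7 of the listed genes, and it changed no other call among the 10 genes. With this block the adjusted p-value was 0.0104 for TGFB2, 0.00176 for FST and 6.2e-07 for THBS1 (edgeR), lower than without it. It was higher than without the block for TGFB1, LTBP2, TGFBR1, TGFBR2 and SMAD7. With 1 library left out, 4 to 5 of the 10 genes and 7 to 9 of the listed genes passed, TGFB2 lay between 0.38 and 0.73, and SMAD3 relative to SMAD2 between -0.046 and 0.086. The further listed genes were FN1, FST, TAGLN, LTBP3 and THBS1 (lower).

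Some values changed sign. SMAD4 was at 0.0195 with total counts only, 0.0059 with a filter of at least 1 count in any library and 4.29e-05 with at least 10 in every library, and between -0.024 and 0.033 with 1 library left out. TGFBR3 was between -0.039 and 0.12 and COL1A1 between -0.18 and 0.32 with 1 library left out. With the median of the neighbours taken off, TGFBR3 was at -0.12 and SKI, at -0.22 otherwise, at 0.15. The cause of these shifts was not tested. Counts limit SMAD7 and TGFB2 most among the 10 genes, with counting standard errors of 0.15 and 0.10 on the log2 scale.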
